A study of Homo sapiens with 11 samples.

Results

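Host transcripts of small nucleolar RNAs (snoRNAs) and of microRNAs were examined in PC3, a human line of androgen-independent prostate cancer cells that came from a bone metastasis. A gene was taken as a snoRNA host when its symbol was SNHG followed by digits, and as a microRNA host when its symbol began with MIR and ended with HG, and only probe sets carrying exactly 1 symbol were read. This gave 31 of 33616 named genes, namely 4 snoRNA hosts and 27 microRNA hosts. No measured value enters this rule, but it was set with earlier results of these data known. A further 22 SNHG symbols, SNHG1 and SNHG5 among them, and 22 MIR symbols ending in HG, MIR17HG and MIR31HG among them, occurred only on probe sets carrying several symbols and were not read.

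RNA had been measured on 11 human Clariom D arrays with 1 array per condition. The conditions were siHOXB13, siHOXA11, siHOXA11-AS and the control siNC at 48 h and at 24 h after transfection, and shIBSP(1), shIBSP(2) and the control shNC at 48 h. All cells were transfected, so no untreated cells enter. The last 3 arrays are titled sh but siRNA appears elsewhere in their labels, and nothing in the sources says that any array came from a separate culture. With 1 array per condition, a difference at 1 time has no replicate check, and p-values measure only the disagreement between arrays, which may be technical.

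The HOXB13 level, which checks the labels, was 8.09 on the siHOXB13 array and 10.10 on the siNC array at 24 h, on the log2 scale. At 48 h it was 10.36 on the siHOXB13-labelled array and 8.52 on the siNC-labelled array, which goes against these 2 labels. Both are named by their labels below. Where leaving out these 2 doubted arrays turned the sign of a fitted difference or moved it more than 1.5 times, that value is given. This was done for kept hosts and genes of the lists, and not for small RNAs, hosts not kept or shIBSP against shNC. HOXA11-AS was 6.40 with siHOXA11-AS, 6.25 with siHOXA11 and 6.68 on the siNC-labelled array at 48 h, and 6.01 with siHOXA11-AS, 6.29 with siHOXA11 and 6.30 with siNC at 24 h. IBSP, near background, was 3.84 with shIBSP(1) and 3.17 with shIBSP(2), against 3.50 with shNC, so it was lower with 1 of the 2 constructs. HOXA11 was not read. On every array the median log2 intensity of the 23 background probe sets was 3.26 to 3.32. The epithelial and PC3 markers KRT8, KRT18, KRT19, VIM, CD44 and EGFR averaged 8.86 to 16.3, while the markers of other cells PTPRC, CD3E, PECAM1, COL1A1 and ALB averaged 4.90 to 8.48, which is above background. The siHOXA11 array at 48 h stood apart, with 13.2% of the genes kept at least 2-fold lower than on the siNC-labelled array at 48 h.

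Host transcripts are long RNAs whose introns or exons contain the small RNAs. A snoRNA is released when its host is spliced and the intron is trimmed, and it then guides chemical modification of ribosomal RNA within a protein complex. The spliced remainder of many snoRNA hosts is a substrate of nonsense-mediated decay, and many such hosts begin with a C and a run of pyrimidines, the start typical of transcripts for the translation machinery. A microRNA hairpin is cut out of its host by DROSHA and DGCR8, exported by XPO5, cut by DICER1 and loaded into an AGO protein, which it directs to messenger RNAs through its seed, bases 2 to 8.

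The microRNAs of the 3 microRNA hosts with the highest means and of MIR181A2HG, a host past 2-fold in 1 pair of arrays, are shown because the seed decides which messenger RNAs each can pair with. Sequences are from RefSeq with coordinates on GRCh38.p14, are written 5′ to 3′, and have the seed in capitals.
hsa-miR-4435, from MIR4435-2HG: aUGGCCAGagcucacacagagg
hsa-miR-221-3p, from MIR222HG: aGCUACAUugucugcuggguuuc
hsa-miR-222-3p, from MIR222HG: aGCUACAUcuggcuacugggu
hsa-let-7c-5p, from MIR99AHG: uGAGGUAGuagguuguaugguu
hsa-miR-99a-5p, from MIR99AHG: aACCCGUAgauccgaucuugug
hsa-miR-125b-5p, from MIR99AHG: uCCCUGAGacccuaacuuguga
hsa-miR-181a-5p, from MIR181A2HG: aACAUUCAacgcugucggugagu
hsa-miR-181b-5p, from MIR181A2HG: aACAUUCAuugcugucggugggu
MIR222HG (chrX:45745214-45770267, minus strand) carries a pair of microRNAs with a common seed, which are known to repress the cell cycle inhibitor CDKN1B. MIR181A2HG on chromosome 9 likewise carries a pair with a common seed, and MIR181A1HG on chromosome 1 encodes the same 2 mature sequences. The 3 microRNAs of MIR99AHG on chromosome 21 have 3 different seeds, and the seed of let-7c-5p is shared with hsa-miR-4500 of MIR4500HG.

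The start sites of the 3 brighter snoRNA hosts are shown because of the pyrimidine start, with 10 bases before the annotated start, the start base in capitals and 19 bases after it, read on the gene's strand in GRCh38.p14.
SNHG19, chromosome 16: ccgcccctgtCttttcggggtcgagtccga
SNHG28, chromosome 1: cccgcctgttGttttccacagagaggacgc
SNHG33, chromosome 3: gaggcttttaCaccgaacggaggtgatgtg
A start at C with at least 5 pyrimidines in a row, the start base included, was found in 1 of 3 snoRNA hosts (SNHG19) and in 2 of 19 microRNA hosts with a promoter in the table (MIR762HG and MIR325HG). The same start was found in 4.043% of 27305 promoters. SNHG28 starts 1 base before a run of pyrimidines and SNHG33 starts at a C followed by an A. These are matches to annotated start sites, and the starts used in PC3 cells were not measured.

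Of the 31 hosts, 12 were among the 16808 genes with the highest mean level, the genes kept for testing, which is 38.7% of the hosts, where 16808 of all 33616 named genes were kept. These were the snoRNA hosts SNHG19, SNHG28 and SNHG33 and the microRNA hosts MIR4435-2HG, MIR222HG, MIR99AHG, MIR3663HG, MIR1915HG, MIR548XHG, MIR181A2HG, MIR3976HG and MIR762HG. The faintest kept hosts were MIR762HG with a mean log2 intensity of 4.93 and MIR3976HG with 4.99, and the brightest host that was not kept was MIR9-1HG with 4.59. Of all 31 hosts, 18 had a mean less than 1 above background and 7 a mean at or under it. The 19 hosts whose mean was under that of the genes kept, the snoRNA host SNHG23 and 18 microRNA hosts, were left out of the main test.

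**Figure D1:**
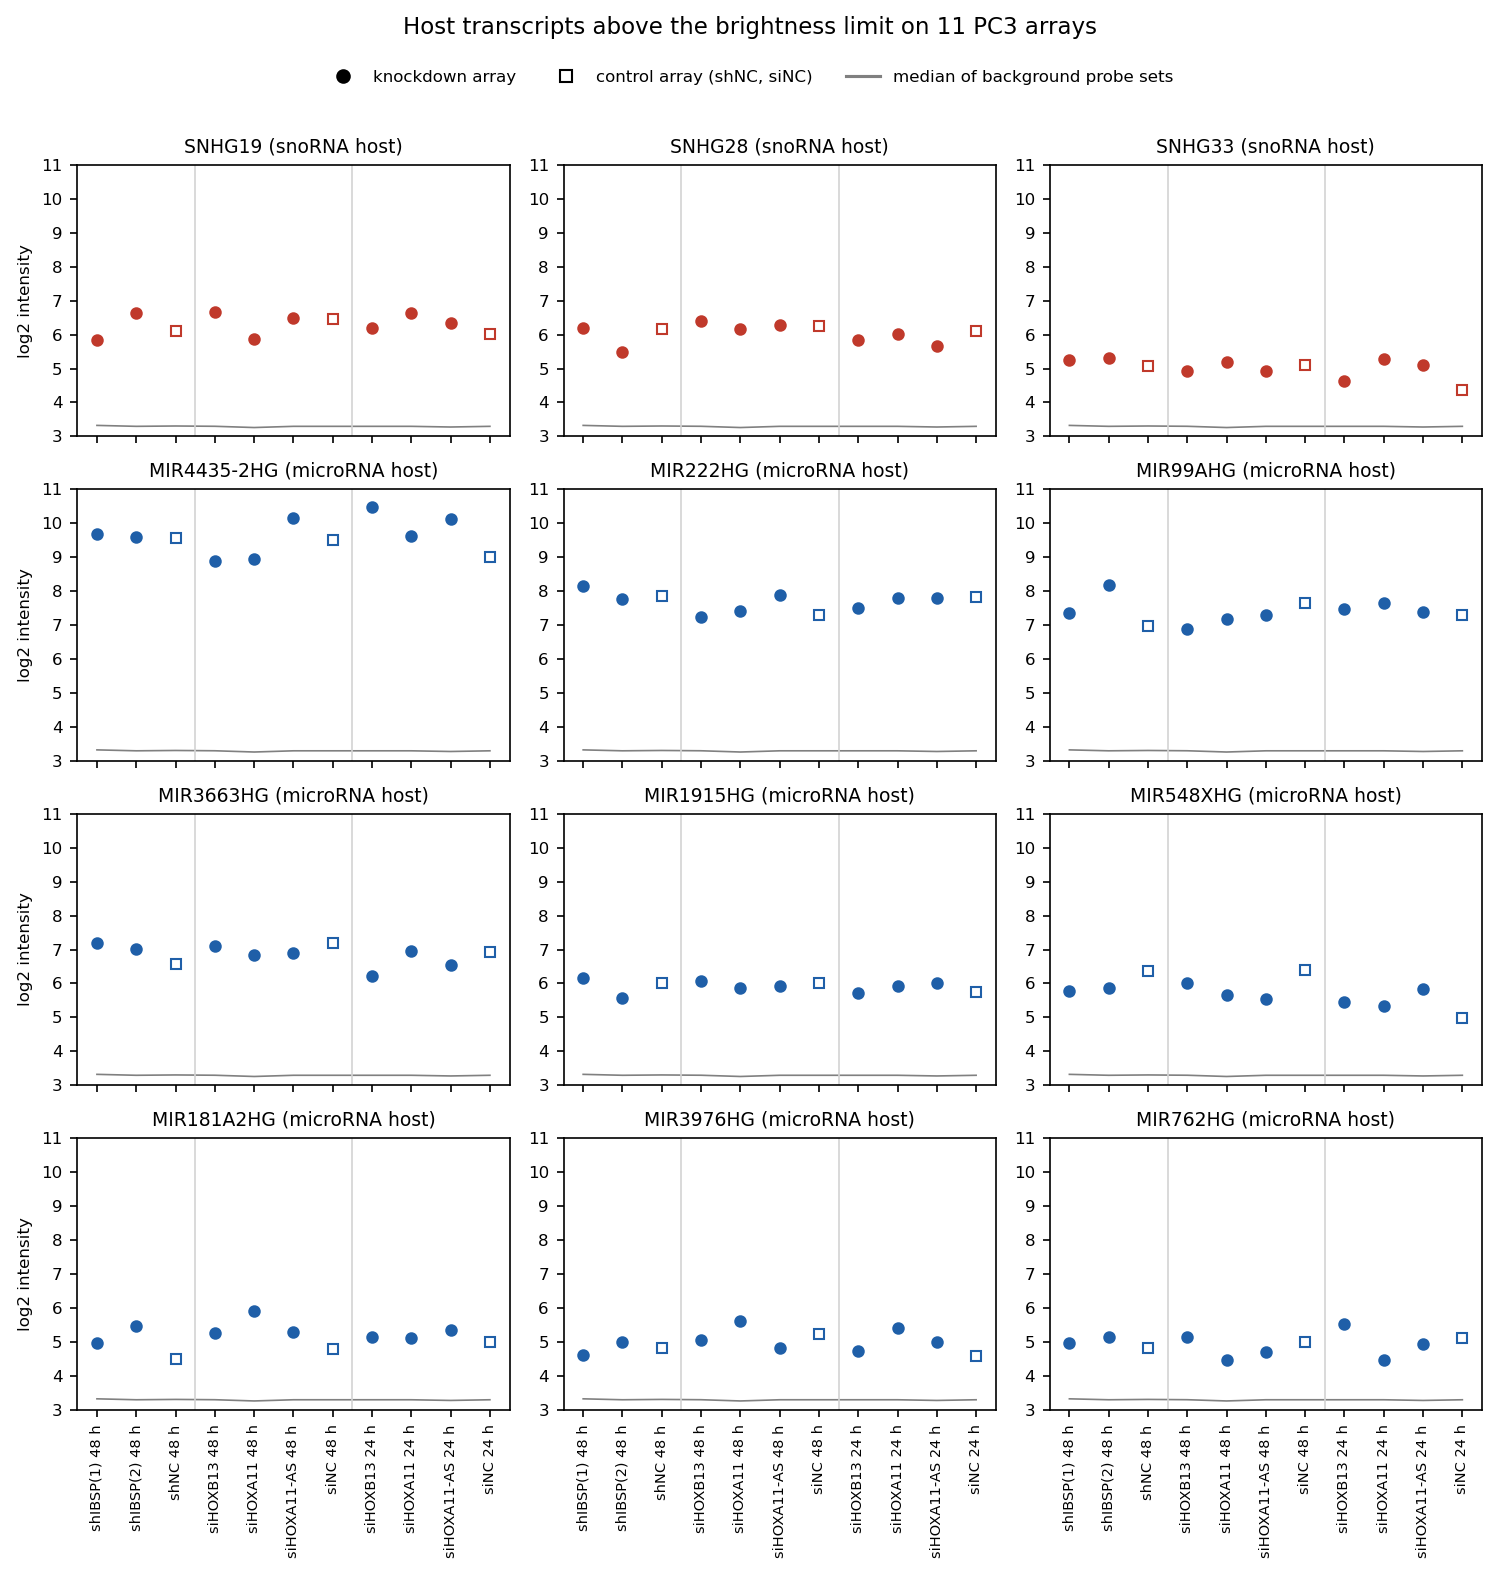
Log2 intensity of the 12 kept host transcripts on each of the 11 arrays, with snoRNA hosts in red and microRNA hosts in blue, knockdown arrays as filled circles, control arrays as open squares, and the median of the background probe sets as a grey line. Vertical lines part the arrays titled sh, the 48 h siRNA arrays and the 24 h siRNA arrays. MIR4435-2HG lay between 8.88 and 10.48, and SNHG33 between 4.36 and 5.32.

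How far each host varied over the 11 arrays was described for both classes with no test. The SD of the log2 intensity was 0.28 to 0.31 for the 3 snoRNA hosts and 0.17 to 0.52 for the 9 microRNA hosts, beside a median of 0.37 over all genes kept. The distance between the lowest and the highest array reached 1, a 2-fold difference, for 0 of 3 snoRNA hosts and for 6 of 9 microRNA hosts, where 68.9% of the genes kept reached it. Among the microRNA hosts MIR1915HG had the narrowest range, with 5.58 on the shIBSP(2) array as its lowest level and 6.16 on the shIBSP(1) array as its highest. Levels of different probe sets cannot be set against each other, so no host is called more abundant than another.

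With 48 h against 24 h, no host passed the test. The limma fit on the 8 siRNA arrays, with the siRNA as a term, called 0 of 3 snoRNA hosts and 0 of 9 microRNA hosts at an adjusted p of 0.05, where 0.0% of the genes kept were called. At an unadjusted p under 0.05 it also gave 0 of 12 hosts, beside 7.02% of the genes kept. The median difference was 0.19 for the snoRNA hosts, with 3 of 3 above 0, and 0.12 for the microRNA hosts, with 5 of 9 above 0. Over all genes kept the median was 0.01, with 51.1% above 0. Without the 2 doubted arrays both medians turned sign, to −0.14 with 1 of 3 snoRNA hosts above 0 and −0.067 with 4 of 9 microRNA hosts above 0.

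SNHG28 (chr1:159834478-159855037, minus strand), a snoRNA host with 1 snoRNA annotated within it, was the host whose 2 times were apart. At 48 h its log2 intensity was 6.40, 6.16 and 6.27 with siHOXB13, siHOXA11 and siHOXA11-AS and 6.25 on the siNC-labelled array. At 24 h it was 5.83, 6.01 and 5.65 with siHOXB13, siHOXA11 and siHOXA11-AS and 6.10 with siNC. All 4 arrays of 48 h were above all 4 arrays of 24 h, which held for 1 of 3 snoRNA hosts, 0 of 9 microRNA hosts and 2.78% of the genes kept, where 4.69% were apart in either direction. The fitted difference was 0.37 (SE 0.22, limma adjusted p = 0.766), and it was 0.38 without the 2 doubted arrays. Its difference was positive with each siRNA, and no other kept host had 1 sign with all 4, where 15.3% of the genes kept did. The 3 arrays titled sh, also of 48 h, gave 6.18 with shIBSP(1), 5.48 with shIBSP(2) and 6.16 with shNC, so the shIBSP(2) array was below every siRNA array.

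SNHG19 (chr16:2154782-2155358, minus strand), the host of the box C/D snoRNA SNORD60, had a fitted difference of 0.07 (SE 0.26) between the times. Its level was 6.66, 5.87 and 6.49 with siHOXB13, siHOXA11 and siHOXA11-AS and 6.46 for siNC at 48 h, against 6.20, 6.63, 6.34 and 6.01 on the 24 h arrays of the same 4 siRNAs. The siHOXA11 array of 48 h was the lowest of these 8 and the siHOXB13 array of 48 h the highest, and the times overlapped. SNHG33, within which H/ACA snoRNAs of the SNORA63 family are annotated, had a fitted difference of 0.19 (SE 0.24). Its 24 h levels of 4.62, 5.27, 5.11 and 4.36 with siHOXB13, siHOXA11, siHOXA11-AS and siNC spanned its 48 h levels of 4.93, 5.19, 4.93 and 5.10. Without the 2 doubted arrays the differences of SNHG19 and SNHG33 were −0.31 and −0.14, so the sign they had with all arrays rested on those arrays.

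Among the microRNA hosts MIR548XHG had the largest positive difference between the times, 0.51 (SE 0.29, limma adjusted p = 0.764). Its level was 6.02, 5.66 and 5.55 with siHOXB13, siHOXA11 and siHOXA11-AS and 6.41 on the siNC-labelled array at 48 h. At 24 h it was 5.47, 5.33 and 5.84 with siHOXB13, siHOXA11 and siHOXA11-AS and 4.99 with siNC. The 2 siNC arrays were the highest and the lowest of the 8 and differed by 1.42, and without the 2 doubted arrays the fitted difference was 0.02. Next in size were MIR3663HG with 0.34 (SE 0.24) and MIR3976HG with 0.24 (SE 0.23), which were 0.12 and 0.0099 without the doubted arrays.

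MIR4435-2HG had the largest negative difference between the times, −0.44 (SE 0.34, limma adjusted p = 0.819). This long noncoding RNA is raised in many tumour types, and its mouse counterpart is known to regulate the survival of myeloid cells. Its 48 h level was 8.88, 8.94 and 10.14 with siHOXB13, siHOXA11 and siHOXA11-AS and 9.51 with siNC, and its 24 h level was 10.48, 9.61, 10.14 and 8.99 on the arrays of the same 4 siRNAs. The siHOXB13 arrays of 48 h and 24 h differed by −1.61, while the siHOXA11-AS arrays differed by 0.00. MIR222HG had −0.28 (SE 0.22) and MIR99AHG −0.21 (SE 0.24), and their times overlapped. The MIR222HG difference was −0.16 without the doubted arrays.

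**Figure D2:**
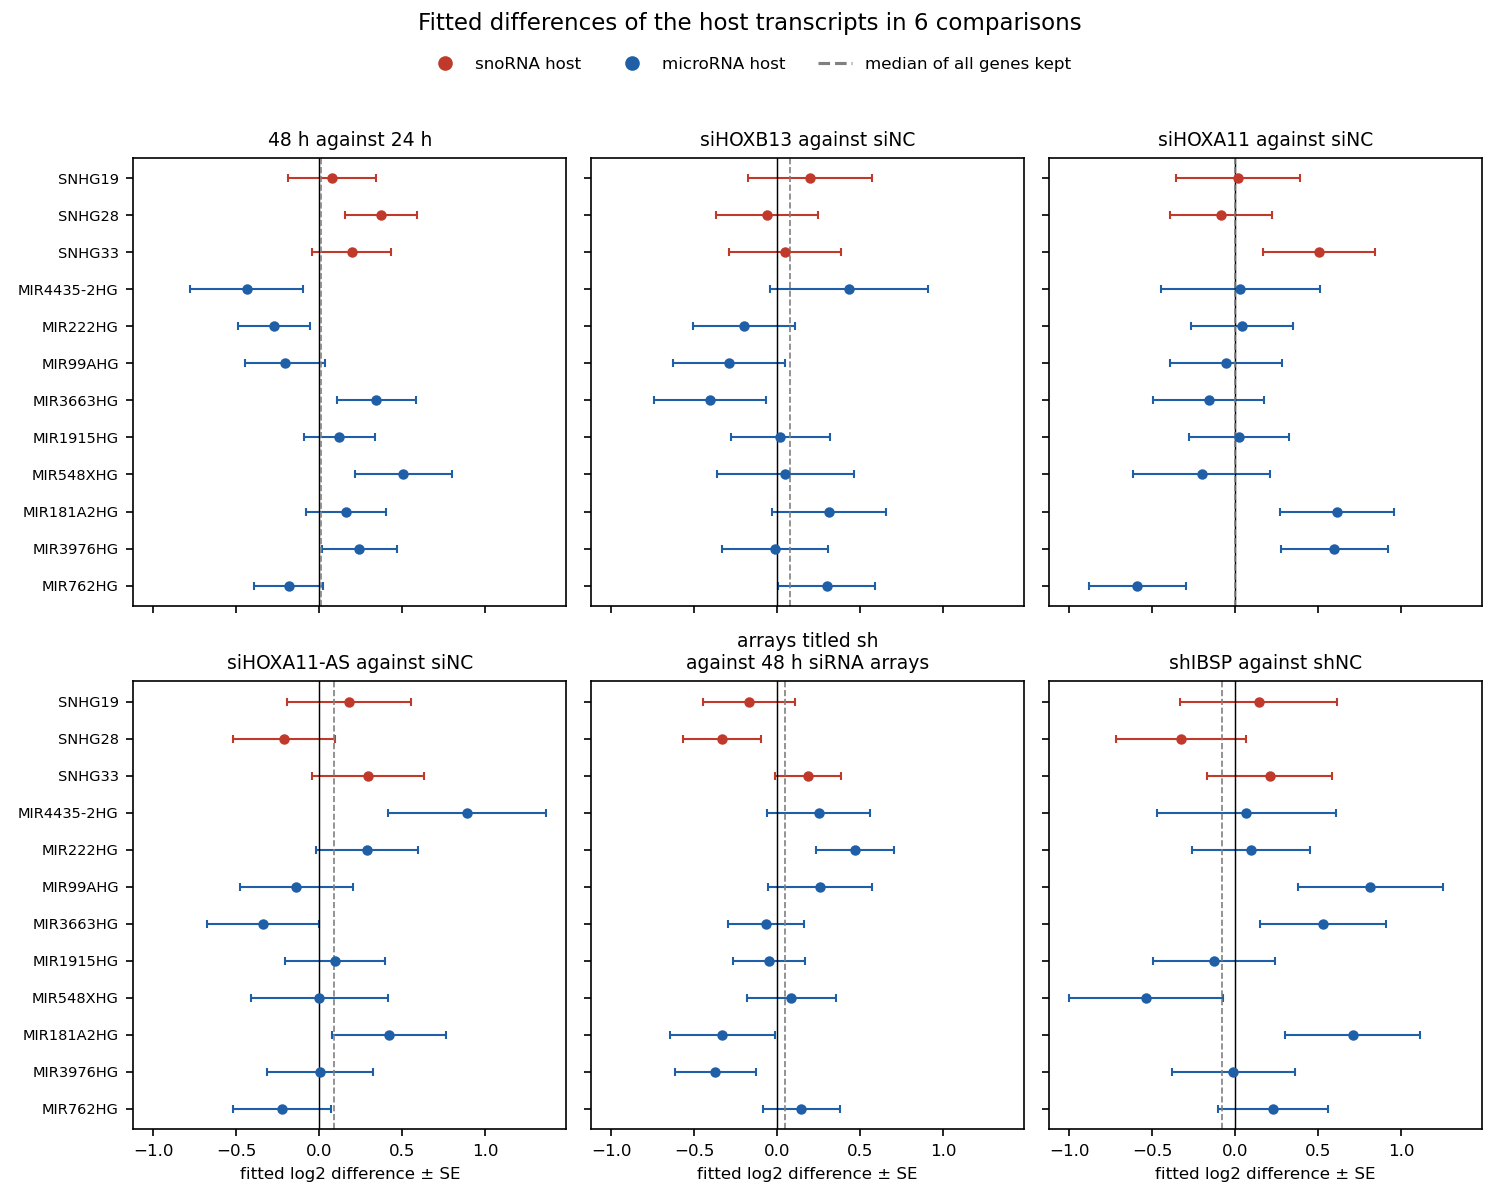
Fitted log2 differences of the 12 kept hosts in each of the 6 comparisons, with bars of 1 standard error. Red points are snoRNA hosts, blue points are microRNA hosts, and the dashed line is the median of all genes kept. MIR4435-2HG with siHOXA11-AS, at 0.89, and MIR99AHG with shIBSP, at 0.81, lay farthest above 0, and 0 of 12 hosts passed the adjusted threshold in any panel.

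For siHOXB13 against siNC, the differences common to both times were small and the 2 times often disagreed. The limma fit called 0 of 12 hosts at an adjusted p of 0.05, beside 0.0% of the genes kept, and 0 of 12 at an unadjusted p under 0.05, beside 1.01%. The median difference was 0.05 for the snoRNA hosts and 0.02 for the microRNA hosts, against 0.08 over all genes kept, and without the doubted arrays these were 0.18, 0.15 and 0.18. The same sign at 48 h and 24 h was found in SNHG19 among the 3 snoRNA hosts and in 4 of 9 microRNA hosts, where 36.4% of the genes kept had it. With the 48 h labels of siHOXB13 and siNC exchanged, an alternative chosen after seeing the data, it was found in 2 of 3 snoRNA hosts, 5 of 9 microRNA hosts and 63.5% of the genes kept.

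MIR4435-2HG had differences of opposite sign with siHOXB13 at the 2 times, by the labels. The siHOXB13 array differed from the siNC array by −0.63 at 48 h and by 1.49 at 24 h, and with the 48 h labels exchanged both are positive, at 0.63 and 1.49. The 24 h difference was past 2-fold upwards, as for 1 of 9 microRNA hosts and 4.58% of the genes kept. The fitted difference over both times was 0.43 (SE 0.48, limma adjusted p = 1.00). Without the doubted arrays, which leaves the 24 h pair alone and unreplicated, it was 1.49. MIR3663HG had −0.08 at 48 h and −0.73 at 24 h, with a fitted −0.41 (SE 0.34) that was −0.73 without the doubted arrays, and SNHG19 had 0.21 and 0.18, with a fitted 0.20 (SE 0.37).

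The siHOXA11 siRNA targets HOXA11, a homeobox transcription factor whose opposite strand encodes HOXA11-AS. Against siNC, the limma fit called 0 of 12 hosts, beside 0.0% of the genes kept, and 0 of 12 at an unadjusted p under 0.05, beside 3.68%. The median difference was 0.02 for both the snoRNA hosts and the microRNA hosts, against −0.00 over all genes kept, and without the doubted arrays these were 0.39, 0.26 and 0.08. MIR181A2HG, MIR3976HG and MIR762HG among the microRNA hosts and SNHG28 and SNHG33 among the snoRNA hosts had 1 sign at both times, where 45.2% of the genes kept had it.

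MIR181A2HG, whose microRNAs are known for tuning lymphocyte signalling, was 5.91 with siHOXA11 and 4.79 on the siNC-labelled array at 48 h, and at 24 h it was 5.11 with siHOXA11, 0.11 above siNC. The difference of 1.12 at 48 h was past 2-fold upwards, as for 1 of 9 microRNA hosts and 3.9% of the genes kept, and the fitted value was 0.62 (SE 0.34, limma adjusted p = 0.980), or 0.32 without the doubted arrays. MIR3976HG was 5.61 with siHOXA11 and 5.23 with siNC at 48 h, and 5.40 with siHOXA11 and 4.59 with siNC at 24 h, with a fitted difference of 0.60 (SE 0.32), or 0.91 without the doubted arrays. MIR762HG stood lower at both times, at 4.46 with siHOXA11 and 4.98 with siNC at 48 h and at 4.46 with siHOXA11 and 5.12 with siNC at 24 h, with a fitted difference of −0.59 (SE 0.29, limma adjusted p = 0.980).

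With siHOXA11, 2 of 3 snoRNA hosts, SNHG28 and SNHG33, had 1 sign at both times, and SNHG19 did not. SNHG28 stood −0.09 from siNC at 48 h and −0.08 from it at 24 h. SNHG33 stood 0.09 above siNC at 48 h and 0.92 above it at 24 h, with a fitted difference of 0.50 (SE 0.34), or 0.94 without the doubted arrays. For SNHG19 the values were −0.58 at 48 h and 0.61 at 24 h, with a fitted 0.02 (SE 0.37), or 0.39 without the doubted arrays.

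With siHOXA11-AS against siNC, MIR4435-2HG had the largest fitted difference of any host, 0.89 (SE 0.48, limma adjusted p = 1.00). The siHOXA11-AS siRNA targets HOXA11-AS, the long noncoding RNA studied here. MIR4435-2HG was 10.14 with siHOXA11-AS and 9.51 on the siNC-labelled array at 48 h, and 10.14 with siHOXA11-AS and 8.99 for siNC at 24 h, so both differences, 0.63 and 1.14, were positive. The second was past 2-fold upwards, as it was for 1 of 9 microRNA hosts and 3.86% of the genes kept. In either direction 5.66% of the genes kept were past 2-fold. Without the 2 doubted arrays the fitted difference was 1.31.

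The limma fit called 0 of 12 hosts with siHOXA11-AS, beside 0.0% of the genes kept, and 0 of 12 at an unadjusted p under 0.05, beside 4.0%. The median difference was 0.18 for the snoRNA hosts and 0.00 for the microRNA hosts, against 0.09 over all genes kept, and without the doubted arrays these were 0.55, 0.18 and 0.18. MIR181A2HG had 0.49 at 48 h and 0.35 at 24 h, and MIR3663HG had −0.28 and −0.40. SNHG19 had 0.03 at 48 h and 0.33 at 24 h, and it was the 1 snoRNA host of 3 with the same sign at both times, beside 4 of 9 microRNA hosts and 56.7% of the genes kept. The 3 siRNAs share their siNC arrays, so their differences are not independent of each other.

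CYTOR, a gene on another part of chromosome 2 that is a close paralog of MIR4435-2HG, was looked up because closely similar transcripts can hybridize to each other's probes. CYTOR is no member, and it was chosen after the values of MIR4435-2HG were seen. At 48 h CYTOR stood −0.48, 0.13 and 0.74 from siNC with siHOXB13, siHOXA11 and siHOXA11-AS, beside −0.63, −0.56 and 0.63 for MIR4435-2HG. At 24 h it stood 0.87, 0.83 and 0.88 from siNC, beside 1.49, 0.62 and 1.14 for MIR4435-2HG. With siHOXA11 at 48 h the signs differed, and how far the 2 probe sets read 1 RNA was not tested.

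**Figure D3:**
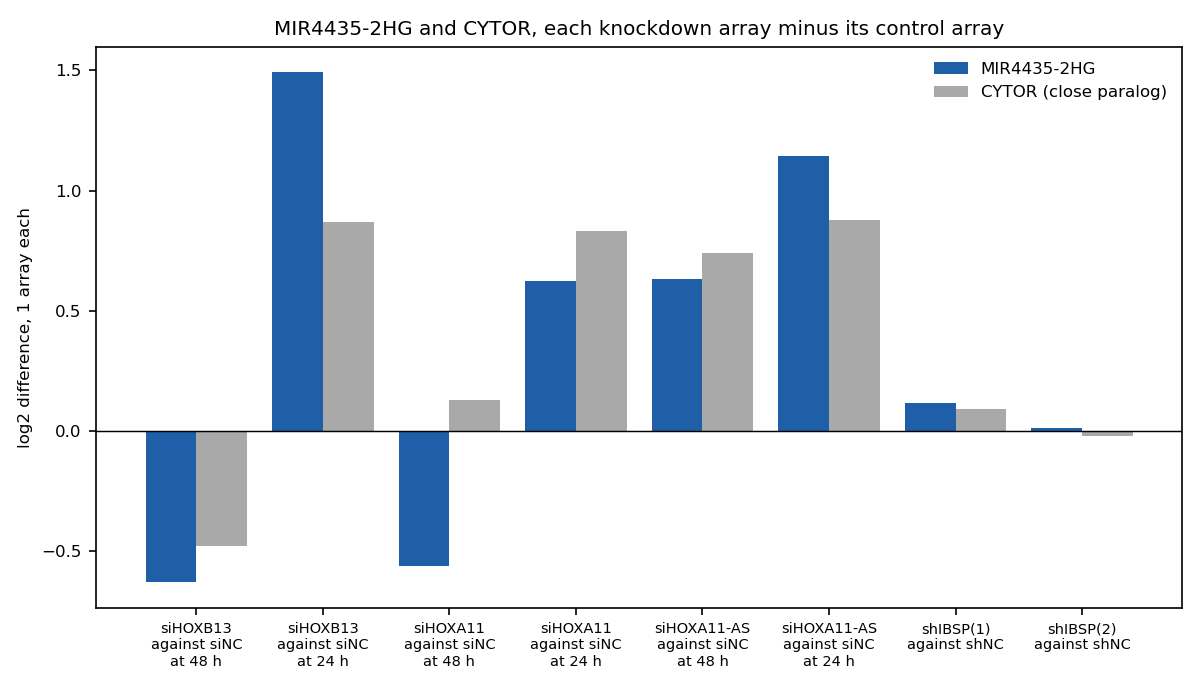
Log2 difference of MIR4435-2HG (blue) and of its close paralog CYTOR (grey) between each knockdown array and its control array, 1 array each and so with no error bars. Both bars were below 0 with siHOXB13 at 48 h, at −0.63 and −0.48, and above 0 with siHOXB13 at 24 h, at 1.49 and 0.87.

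Between the arrays titled sh and the siRNA arrays of 48 h, genes outside the host lists were called, but no host was. The limma fit called 0 of 12 hosts, beside 170 genes or 1.01% of the genes kept, and 0 of 12 at an unadjusted p under 0.05, beside 9.98%. The 2 groups of arrays overlapped for each of the 12 hosts, while 11.1% of the genes kept did not overlap. What else differed between these 2 sets of arrays is not given in the labels used here and was not tested. The median difference was −0.17 for the snoRNA hosts, with 1 of 3 above 0, and 0.08 for the microRNA hosts, with 5 of 9 above 0. Over all genes kept the median was 0.05, with 56.1% above 0. Without the doubted arrays the snoRNA host median turned sign, to 0.018.

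MIR222HG had the largest positive difference, 0.47 (SE 0.23, limma adjusted p = 0.567), or 0.27 without the doubted arrays. Its log2 intensity was 8.14 and 7.77 with shIBSP(1) and shIBSP(2) and 7.86 with shNC, against 7.23, 7.40, 7.89 and 7.30 with siHOXB13, siHOXA11, siHOXA11-AS and siNC, all of 48 h. The siHOXA11-AS array alone lay within the range of the arrays titled sh. MIR3976HG had −0.37 (SE 0.24), MIR181A2HG −0.33 (SE 0.32), which was −0.62 without the doubted arrays, and SNHG28 −0.33 (SE 0.24). With the control arrays alone, shNC differed from siNC by 0.56 for MIR222HG and by −0.68 for MIR99AHG.

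For shIBSP against shNC, the hosts with the widest differences were microRNA hosts. MIR99AHG, the host of let-7c, miR-99a and miR-125b-2, was 7.37 with shIBSP(1) and 8.17 with shIBSP(2), against 6.96 with shNC. The shIBSP(2) difference of 1.21 was past 2-fold upwards, as for 1 of 9 microRNA hosts and 0.988% of the genes kept. In either direction 5.85% of the genes kept were past 2-fold. The shIBSP(2) array was the highest of the 11 for MIR99AHG. The fitted difference was 0.81 (SE 0.44, limma adjusted p = 1.00). MIR181A2HG was 4.96 with shIBSP(1) and 5.46 with shIBSP(2), against 4.51 with shNC, the lowest of the 11 arrays, with a fitted difference of 0.71 (SE 0.41).

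MIR3663HG was 7.20 and 7.03 with shIBSP(1) and shIBSP(2), against 6.59 with shNC, and MIR548XHG was 5.78 and 5.86 with shIBSP(1) and shIBSP(2), against 6.36 with shNC. Their fitted differences were 0.53 (SE 0.38) and −0.54 (SE 0.46). The snoRNA hosts had 0.14 (SNHG19), −0.33 (SNHG28) and 0.21 (SNHG33), and the constructs disagreed in sign for 2 of them. SNHG19 was 5.84 with shIBSP(1) and 6.65 with shIBSP(2), against 6.10 with shNC. SNHG28 differed from shNC by 0.025 with shIBSP(1) and by −0.68 with shIBSP(2), so its value rests on the shIBSP(2) array. The limma fit over all 11 arrays called 0 of 12 hosts, beside 0.0% of the genes kept, and 0 of 12 at an unadjusted p under 0.05, beside 2.54%. The medians were 0.14 for the snoRNA hosts and 0.10 for the microRNA hosts, against −0.08 over all genes kept, and shNC is a single array.

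Hosts under the brightness limit passed 2-fold in single pairs of arrays. SNHG23, the snoRNA host under the limit, was 4.01, 3.91 and 4.10 with siHOXB13, siHOXA11 and siHOXA11-AS at 48 h, against 5.14 on the siNC-labelled array. That siNC array was the highest of the 11 for SNHG23, so all 3 differences, −1.13, −1.23 and −1.04, rest on it, where 6.29%, 10.8% and 4.01% of all named genes were past 2-fold in either direction in these pairs. MIR924HG stood 1.07 above siNC with siHOXB13 at 24 h and 1.25 above it with siHOXA11 at 48 h, and MIR4290HG stood 1.07 above shNC with shIBSP(2), where 3.93%, 10.8% and 4.25% of all named genes were past 2-fold. In a fit of all 33616 named genes 0 of 31 hosts passed the adjusted threshold in any of the 6 comparisons, and 1 host, MIR762HG with siHOXA11, had an unadjusted p under 0.05 (limma adjusted p = 0.965). Over all named genes the share with such a p was 6.36% for 48 h against 24 h, 1.92% with siHOXB13, 4.42% with siHOXA11, 4.2% with siHOXA11-AS, 7.42% for the arrays titled sh and 3.19% with shIBSP.

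The small RNAs encoded within the hosts were read as a measure that the choice of members did not use. RefSeq placed 49 of them within 30 hosts, and 41 within 26 hosts had a probe set of their own with 1 symbol. Of the 41, 26 lie on the strand of their host, 1 lies on the opposite strand and for 14 the strand is not given in the table. Of these 41, 28 had a mean less than 1 above background, and the labelling of total RNA used here does not separate a small RNA from the host RNA that contains it. The limma fit of all named genes called 0 of 41 in each of the 6 comparisons, and 1 to 4 had an unadjusted p under 0.05. Small RNA and host had the same sign for 15 to 21 of the 41 in the 6 comparisons.

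SNORD60, the box C/D snoRNA of SNHG19 (chr16:2155023-2155105), guides methylation of ribosomal RNA. Its log2 intensity was 12.20, 10.74 and 12.62 with siHOXB13, siHOXA11 and siHOXA11-AS and 12.31 for siNC at 48 h, against 12.40, 12.07, 12.10 and 11.86 on the 24 h arrays of the same 4 siRNAs. The siHOXA11 array of 48 h was the lowest of the 11 for SNORD60 and the lowest siRNA array for SNHG19. On that array 13.2% of the genes kept were at least 2-fold lower than on the siNC-labelled array of 48 h. On the arrays titled sh SNORD60 was 12.87 and 12.65 with shIBSP(1) and shIBSP(2) and 12.44 with shNC. Its fitted difference from the siRNA arrays of 48 h was 0.69 (SE 0.40, limma adjusted p = 0.815), beside −0.17 (SE 0.26) for SNHG19. Without the doubted arrays the SNHG19 difference turned sign, to 0.018.

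Of the 246 differences of small RNAs, 14, in 9 microRNA hairpins, had an unadjusted p under 0.05, of which 9 had the sign of the host and 3 lay within 0.2 of it. These 3 were MIR548X at 48 h against 24 h, MIRLET7C with shIBSP against shNC and MIR221 on the arrays titled sh against the siRNA arrays of 48 h. MIR548X had 0.64 (SE 0.22, limma adjusted p = 0.769), beside 0.51 for MIR548XHG. Without the 2 doubted arrays MIR548XHG had 0.02, so its 0.51 rested on those arrays. With siHOXA11 and siHOXA11-AS, MIR548X was 5.63 and 5.49 at 48 h, against 4.47 and 4.67 at 24 h. MIRLET7C, the hairpin of let-7c, had 0.79 (SE 0.31, limma adjusted p = 1.00), beside 0.81 for MIR99AHG, but MIR99A had 0.11 and MIR125B2 −0.23 in the same comparison. MIR221 had 0.45 (SE 0.18), beside 0.47 for MIR222HG, which was 0.27 without the doubted arrays, while MIR222 had −0.05. The levels of MIRLET7C, MIR221 and MIR222 averaged 3.72, 4.04 and 3.54, so these differences were measured near background.

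Other hairpins stood apart from their hosts. MIR4290, with a mean of 5.58, had −0.75 (SE 0.17, limma unadjusted p = 0.00236, adjusted p = 0.763) at 48 h against 24 h, beside −0.12 for MIR4290HG. MIR889 had 0.97 (SE 0.35, limma adjusted p = 1.00) with shIBSP against shNC, beside −0.05 for MIR381HG. MIR655 had −1.03 (SE 0.41, limma adjusted p = 1.00) with siHOXA11-AS, beside −0.09 for the same host. It also had −0.91 with siHOXB13 and −0.37 with siHOXA11. Its highest level on any array was 6.01, with siNC at 24 h, against 4.51 on the siNC-labelled array at 48 h. MIR4500 had −1.09 (SE 0.29, limma adjusted p = 1.00) with siHOXB13, beside −0.50 for MIR4500HG. With siHOXA11 and siHOXA11-AS MIR4500 had −0.71 and −0.72, beside 0.26 and −0.19 for MIR4500HG. Both siNC arrays, at 4.96 each, were its highest, and the siRNAs share them. With siHOXB13 the MIR4500HG difference was −0.98 at 48 h by the labels and −0.015 at 24 h. How the values of these hairpins and hosts move without the 2 doubted arrays was not examined.

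**Figure D4:**
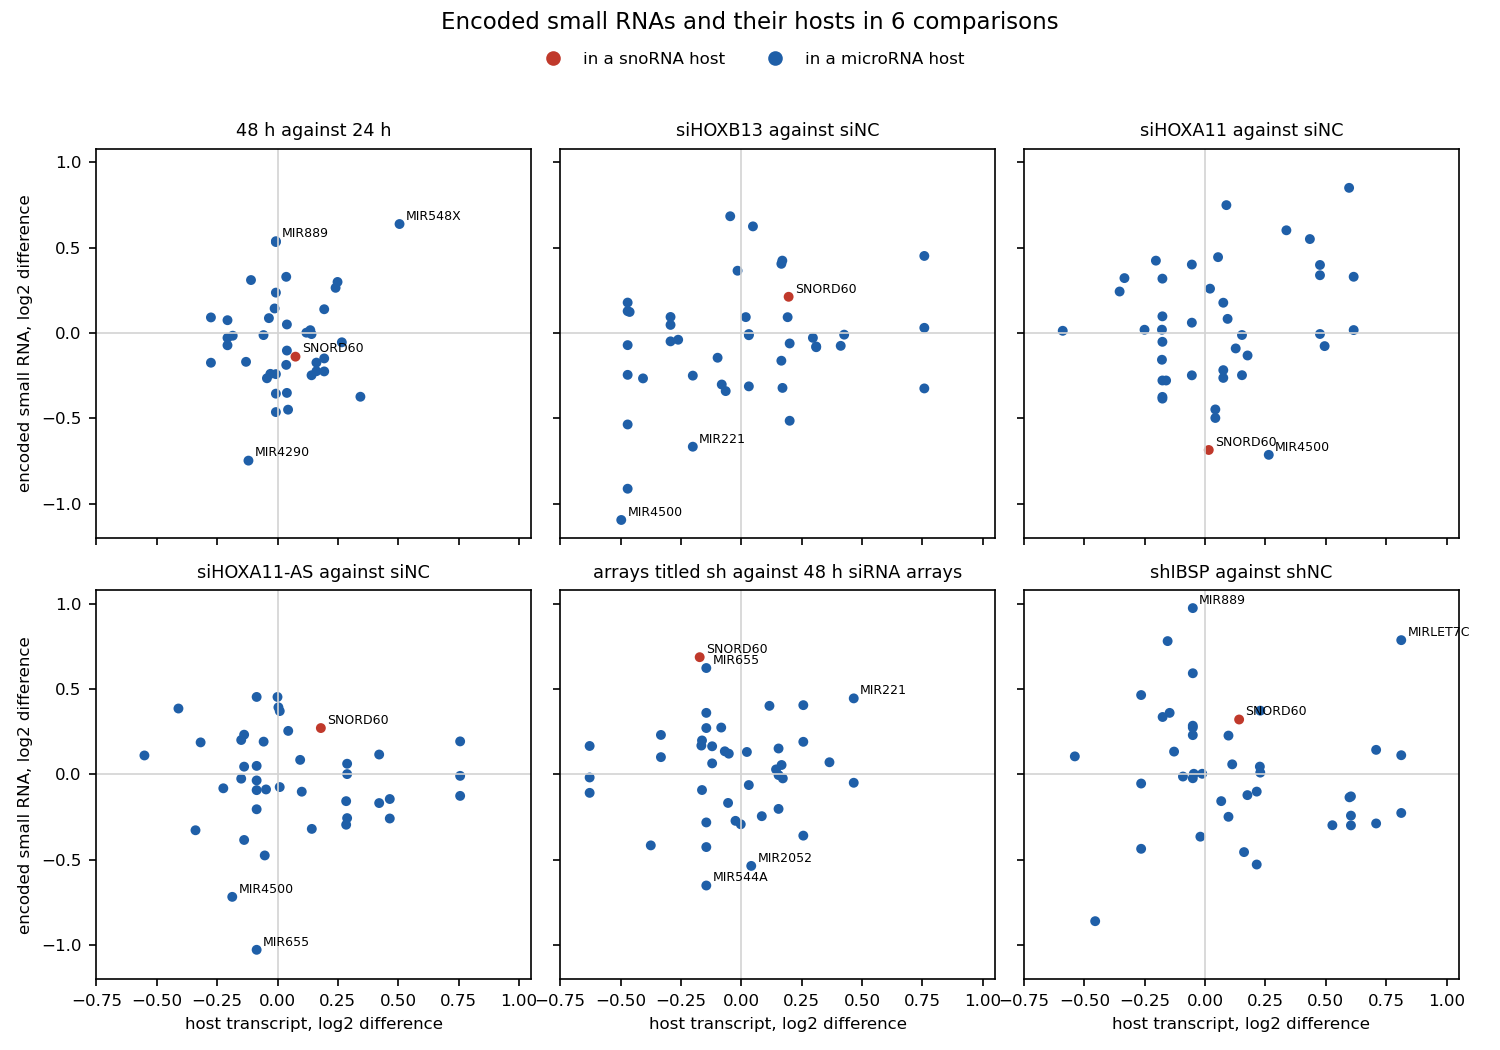
Fitted log2 difference of each of 41 encoded small RNAs (vertical axis) against that of its host (horizontal axis) in the 6 comparisons, with SNORD60 in red and microRNA hairpins in blue. SNORD60 and those at an unadjusted p under 0.05 are named. Small RNA and host shared their sign for 20 of 41 at 48 h against 24 h and for 15 of 41 with shIBSP.

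Other hosts and the processing machinery were described by lists of known genes. Of 35 other snoRNA hosts, mostly ribosomal protein and translation factor genes, 10 had a probe set with 1 symbol and 8 were kept, and 0 of 8 were called in any of the 6 comparisons. RPL7A, which encodes a protein of the large ribosomal subunit, had −1.12 (SE 0.22, limma adjusted p = 0.0526) on the arrays titled sh against the siRNA arrays of 48 h. Nucleolin, encoded by NCL, had 1.02 (SE 0.38) with siHOXA11 and −1.12 (SE 0.43) with shIBSP. Of 25 other microRNA hosts 20 were kept and 0 were called, with MCM7, a subunit of the replicative helicase whose gene holds a microRNA cluster, at −0.63 (SE 0.23) for 48 h against 24 h.

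The proteins of snoRNA particles, 8 of 10 kept, had 0 called and a median of −0.23 at 48 h against 24 h, with 1 of 8 above 0. Over all genes kept the median was 0.01, with 51.1% above 0. Their highest median was 0.32, on the arrays titled sh against the siRNA arrays of 48 h, with 6 of 8 above 0. There the median over all genes kept was 0.05, with 56.1% above 0. The core box C/D protein NOP58, itself a snoRNA host, had −0.67 (SE 0.26, limma adjusted p = 0.705) at 48 h against 24 h, or −1.02 without the doubted arrays. Factors of nonsense-mediated decay, 7 of 10 kept, had 0 called. Their medians lay between −0.38 with shIBSP against shNC, with 1 of 7 above 0, and 0.25 with siHOXB13, with 6 of 7 above 0. Over all genes kept the medians were −0.08 with shIBSP, with 40.0% above 0, and 0.08 with siHOXB13, with 61.7% above 0. The median was −0.23 at 48 h against 24 h, with 0 of 7 above 0, beside 51.1% of the genes kept. It was 0.20 on the arrays titled sh against the siRNA arrays of 48 h, with 7 of 7 above 0, beside 56.1% of the genes kept. In the last of these comparisons UPF1, the helicase of this pathway, had 0.77 (SE 0.26, limma adjusted p = 0.326), and SMG5 had 0.85 (SE 0.23, limma adjusted p = 0.184).

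Of the microRNA processing genes, 9 of 10 were kept and 1 was called. AGO1, which encodes an Argonaute protein that binds mature microRNAs, was 9.27 and 9.45 with shIBSP(1) and shIBSP(2) and 8.96 with shNC, against 10.63, 10.76, 10.13 and 10.44 with siHOXB13, siHOXA11, siHOXA11-AS and siNC, all of 48 h. All 3 arrays titled sh were below all 4 siRNA arrays, as for 3.92% of the genes kept, where 11.1% were apart in either direction. AGO1 fell by 1.27 (SE 0.24, limma adjusted p = 0.0388), where 1.01% of the genes kept were called. AGO4 had 0.74 (SE 0.26, limma adjusted p = 0.349), DICER1 had −0.83 (SE 0.36, limma adjusted p = 0.709) for 48 h against 24 h, or −1.45 without the doubted arrays, and AGO2 had 0.94 (SE 0.32, limma adjusted p = 0.980) with siHOXA11. The AGO1 call was lost, with adjusted p between 0.101 and 0.279, on leaving out the siNC, siHOXB13, shNC, shIBSP(1) or shIBSP(2) array of 48 h, and with the 2 doubted arrays left out it was 0.250.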

How the data were processed

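RNA of transfected PC3 cells was hybridized to 11 human Clariom D arrays, 1 per condition, and arrays were grouped by their titles. The submitters' processing notes name Affymetrix Expression Console. The authors deposited a linear intensity for each probe set, so log2 was taken first although log2 values had been planned for. Their software version, normalization and genome build were not given in the sources used here. Nothing was normalized further.

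Of 138745 probe sets, 36176 carried 1 symbol, 1119 carried several and 101450 were unnamed here. Each gene was read from its probe set with the highest mean, and the 16808 genes with the highest means, of 33616, were kept. Having 1 array per condition limits the precision. The members and gene lists were chosen with earlier results of these data known.

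Differences were fitted with limma 3.58.1 (lmFit and eBayes) in R 4.3.3 over all 16808 genes kept, with Benjamini-Hochberg adjustment at 0.05. The 8 siRNA arrays were fitted with terms for siRNA and time, which left 3 residual degrees of freedom, the 7 arrays of 48 h with 5, and all 11 arrays with 4. The fits were tested on simulated data. Named were all members past the threshold, the 6 hosts of each class with the highest means, the 3 largest rises and falls of each class per comparison, up to 3 genes of each list per comparison, the small RNAs of a named host, and HOXB13. CYTOR, the hosts under the brightness limit and the hairpins of hosts not named by this rule were chosen after their values were seen. Microarray probe sets that carry several symbols were not read. Start sites and microRNA sequences came from RefSeq tables for GRCh38.p14, in which 30 of 31 members were found. Alternatives were no filter, averaging the probe sets of a gene, median centring, quantile normalization, an intensity trend, other model terms, leaving out the 2 arrays in doubt and leaving out each array. Other steps ran in Python 3.11.15 (numpy 2.4.6, pandas 2.3.3, and for the plots matplotlib 3.10.9).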

Additional observations from a re-analysis of the deposited data

Results flagged for a closer look

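Within the 4 siRNA arrays of 1 time, 1 array lay far from the other 3 for 6 hosts out of 62 groups of 4 arrays examined. The nominal rate of this rule is about 1 in 20. The share of all genes meeting it on these arrays was not counted, so no excess among the hosts is read from it. MIR222HG at 24 h was 7.50 with siHOXB13, against 7.80 to 7.83 on the other 3 arrays. SNHG23 at 48 h was 5.14 on the array labelled siNC, against 3.91 to 4.10 on the others. MIR4300HG at 24 h was 4.72 with siHOXB13, against 3.85 to 3.93 on the others. MIR4500HG at 48 h was 2.97 on the array labelled siHOXB13, against 3.95 to 4.10 on the others. MIR646HG at 48 h was 3.50 with siHOXA11, against 3.11 to 3.17 on the others. MIR217HG at 48 h was 3.14 with siHOXA11-AS, against 2.88 to 2.91 on the others. All but MIR222HG are under the brightness limit.

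Differences from siNC had opposite signs at the 2 times, with both at least 0.5 in size, in 5 cases. The share of all genes meeting this rule was not counted, so nothing particular to the hosts is read from it. The same sign at both times was found in 36.4% of the genes kept with siHOXB13, 45.2% with siHOXA11 and 56.7% with siHOXA11-AS. As for the 5 cases, their limits are as follows. They are single pairs of arrays, the difference between the times was not tested, and the 48 h value of each rests on the siNC-labelled array. MIR4435-2HG with siHOXB13 had −0.63 at 48 h by the labels and 1.49 at 24 h, and with the 48 h labels of siHOXB13 and siNC exchanged, where HOXB13 goes against them, the first is 0.63 and the signs do not differ. MIR4435-2HG with siHOXA11 had −0.56 at 48 h and 0.62 at 24 h. SNHG19 with siHOXA11 had −0.58 at 48 h and 0.61 at 24 h. MIR548XHG with siHOXA11-AS had −0.85 at 48 h and 0.85 at 24 h. SNHG23 with siHOXA11 had −1.23 at 48 h and 0.80 at 24 h.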

How the results depend on the processing

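Under the 98 fits over 22 settings, 0 of 12 kept hosts passed the adjusted threshold in any of the 6 comparisons, and the lowest limma adjusted p of any host was 0.249. Among genes of all kinds, median centring gave 1 call for 48 h against 24 h, where the main setting gave 0, and 256 calls for the arrays titled sh against the 48 h siRNA arrays, where the main setting gave 170. The centred calls were 190 higher and 66 lower, against 147 higher and 23 lower in the main setting. Leaving out the 2 arrays in doubt gave 34 there. Leaving out each array in turn gave 51 to 239 calls there, with 51 without shNC, 52 without shIBSP(1), 79 without shIBSP(2) and 99 without the siNC-labelled array, and 0 in the other 5 comparisons.

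Medians of the host classes moved under some settings, and the cause was not tested. Without the 2 arrays in doubt the medians at 48 h against 24 h were −0.14 for the snoRNA hosts and −0.067 for the microRNA hosts, and the snoRNA host medians were 0.18 with siHOXB13 and 0.55 with siHOXA11-AS. The snoRNA host median with siHOXB13 was −0.0075 with no filter and −0.069 with median centring. The microRNA host median with shIBSP was 0.066 with no filter, 0.25 with quantile normalization and 0.21 with median centring. For shNC against siNC alone the microRNA host median was −0.16.

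Leaving out each array in turn, the snoRNA host medians lay between 0.01 and 0.35 for 48 h against 24 h, −0.066 and 0.41 with siHOXB13, −0.24 and 0.57 with siHOXA11, −0.070 and 0.43 with siHOXA11-AS, −0.34 and 0.01 for the arrays titled sh, and 0.03 and 0.24 with shIBSP. The microRNA host medians lay between −0.055 and 0.18, −0.20 and 0.11, −0.12 and 0.31, −0.26 and 0.22, −0.03 and 0.20, and 0.10 and 0.18 in the same order of comparisons. For AGO1 the adjusted p was 0.0671 with quantile normalization and 0.0646 with an intensity trend. Exchanging the 48 h labels of siHOXB13 and siNC, an alternative chosen after seeing the data, gave 7 of 12 hosts with 1 sign at both times with siHOXB13, against 5 by the labels. The comparison of shIBSP with shNC could not be fitted without shNC, its single control array. The siRNA term of the fit paired the 48 h and 24 h arrays of each siRNA, and the time term paired the siRNA arrays of each time. No other pairing was possible because the labels give each condition 1 array and no replicate numbers that groups share. Without the siRNA term or the time term 0 hosts were called as well. Hosts near background, 18 of 31, were measured poorly, and 1 array per condition limits the precision.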
